A study of Homo sapiens with 6 samples.

Results

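The 10 genes described here were grouped around steps that mark YAP for destruction and were measured in HCT116, a human colorectal cancer cell line. They are the F-box substrate receptors BTRC, FBXW11 and FBXW7, the casein kinase 1 genes CSNK1D and CSNK1E, the SCF ligase core genes CUL1, SKP1 and RBX1, and the 14-3-3 genes YWHAZ and YWHAE. Members were taken by gene symbol, and 10 of 19871 symbols were used, with 74 of the 92866 transcripts in the mRNA tables. The study sequenced RNA from HCT116 cells in 3 groups of 2 libraries each, named NC, GAS5 and siYAP. NC is the control, and what these cells received is not stated in the labels. The treatment protocol names a GAS5 plasmid and a siRNA against YAP, while the siRNA field of the labels holds NC, GAS5 and siYAP alike, so the GAS5 group is called here by its label. All groups come from the same cell line in culture, and no age, time point or dose is given. The tables hold 1 authors' mean per group, so no spread between cultures can be computed, no test was possible, and both comparisons share the same NC mean.

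YAP is a transcriptional co-activator that drives growth programs when it enters the nucleus with TEAD factors. The Hippo kinases LATS1 and LATS2 phosphorylate it at several serines. One of these sites lets 14-3-3 proteins hold YAP in the cytoplasm, and another primes it for casein kinase 1 delta and epsilon, whose phosphorylation makes a degron that beta-TrCP reads. Beta-TrCP (BTRC and FBXW11) is the receptor of an SCF ubiquitin ligase, in which SKP1 bridges the receptor to the scaffold CUL1 and the RING protein RBX1 brings the E2 enzyme. FBXW7 is another receptor that fits the same SCF scaffold, known for MYC, cyclin E and JUN as substrates. These steps act on proteins, and the present data measure only mRNA.

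Several of these genes make more than one protein from alternative coding exons, and the exons whose use was compared are shown first. The sequences come from GENCODE 29 transcripts on GRCh38. BTRC has an optional exon of 108 bases (chr10:101430345-101430452, plus strand) carried by BTRC-202 and BTRC-203, and another of 78 bases (chr10:101461981-101462058) that BTRC-203 skips. FBXW11, the paralogue, has a matching exon of 102 bases (chr5:171957597-171957698, minus strand) in FBXW11-201, and a further one of 63 bases (chr5:171914343-171914405) in FBXW11-202. All 4 exons are coding and internal. Capitals in the 108-base and 102-base exons mark identical letters over their first 72 positions, lined up from the 5′ end without gaps, where 55 of 72 positions (76.4%) were the same.
BTRC 108-base exon: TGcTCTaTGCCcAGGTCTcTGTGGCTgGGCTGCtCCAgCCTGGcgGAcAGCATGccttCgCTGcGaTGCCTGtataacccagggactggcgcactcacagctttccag
FBXW11 102-base exon: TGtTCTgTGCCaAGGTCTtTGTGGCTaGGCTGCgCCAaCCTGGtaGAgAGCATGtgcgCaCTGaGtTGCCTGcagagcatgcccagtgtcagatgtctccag
BTRC 78-base exon: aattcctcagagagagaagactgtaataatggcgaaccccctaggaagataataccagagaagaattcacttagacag
FBXW11 63-base exon: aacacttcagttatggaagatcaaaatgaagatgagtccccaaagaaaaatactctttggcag

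FBXW7 is known for alternative first coding exons that place its protein in different parts of the cell. The first coding exon of FBXW7-201 is 261 bases long, and that of FBXW7-202, FBXW7-205 and FBXW7-207 is 501 bases long. The first 120 bases of each are shown, with the start codon in capitals (chr4:152352611-152352730 and chr4:152411684-152411803, minus strand). They are shown because the FBXW7 counts were split differently over these transcripts in each group.
FBXW7-201 start: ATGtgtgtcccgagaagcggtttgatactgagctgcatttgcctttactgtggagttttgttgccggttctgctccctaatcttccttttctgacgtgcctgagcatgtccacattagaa
FBXW7-205 start: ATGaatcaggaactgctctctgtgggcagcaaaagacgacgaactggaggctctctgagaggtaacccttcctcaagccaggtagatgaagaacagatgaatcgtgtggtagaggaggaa

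CSNK1D-202, CSNK1D-203 and CSNK1D-204 share their kinase domain and differ in coding sequence only in the last coding exon. A shorter, rare transcript, CSNK1D-213, reaches none of these ends. The end is 30 bases in CSNK1D-203 (chr17:82246010-82246039, minus strand), 48 bases in CSNK1D-202 (chr17:82244784-82244831) and 84 bases in CSNK1D-204 (chr17:82239979-82240062), each without its stop codon.
CSNK1D-203 end: aatagcattcctttcgaacaccacggcaag
CSNK1D-202 end: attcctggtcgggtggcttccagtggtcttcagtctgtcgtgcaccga
CSNK1D-204 end: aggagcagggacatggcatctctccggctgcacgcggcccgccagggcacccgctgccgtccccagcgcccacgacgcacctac

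Summed mean counts ranged from 25521577 (GAS5) to 27206123 (NC). Keratin genes and EPCAM were high, and PTPRC, the pan-leukocyte marker, was listed at 0 in all 3 groups. VIL1, an intestinal epithelial marker, was at 0 in NC and at no more than 6 mean counts in the other groups. YAP1 was at 3480 mean counts in NC, against 2679 in GAS5 and 1444 in siYAP. On the scaled log2 scale it was 1.15 lower in siYAP than in NC and 0.27 lower in GAS5. CYR61, a YAP target, was higher in both groups (log2 fold change 1.08 in GAS5 and 0.32 in siYAP). CTGF, another target, was at 0.71 in GAS5 and at 0.19 in siYAP, where its counting interval included 0 (-0.12 to 0.51). All 4 interferon markers were higher in GAS5, from 1.54 for MX1 to 4.92 for OAS1, with IFIT1 at 3.91 and ISG15 at 2.88. In siYAP, ISG15 was at 0.34, IFIT1 at -0.21, MX1 at 0.49 and OAS1 at 0.17, the last pair on fewer than 50 mean counts. The part of the interferon genes in the GAS5 values below was not tested.

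The 10 members were all expressed, and their levels spanned more than 2 orders of magnitude in FPKM, which corrects for transcript length. Summed over transcripts in NC, the order was YWHAZ at 742 FPKM, YWHAE at 336, SKP1 at 198, CSNK1D at 64.5, CSNK1E at 38.1, RBX1 at 32.2, FBXW11 at 25.7, CUL1 at 21.6, BTRC at 9.71 and FBXW7 at 5.76. BTRC and FBXW7 were thus the lowest members and the 14-3-3 genes the highest, while FBXW11 stood between RBX1 and CUL1. YWHAZ ranked 105 of 11925 genes that reached 50 mean counts in NC, while FBXW7 ranked 8481. Within the SCF core, SKP1 was 9.16 times as high as CUL1 in NC and RBX1 was 1.49 times as high. With 1 mean per group, whether neighbours in this order differ beyond their spread could not be assessed.

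**Figure D1:**
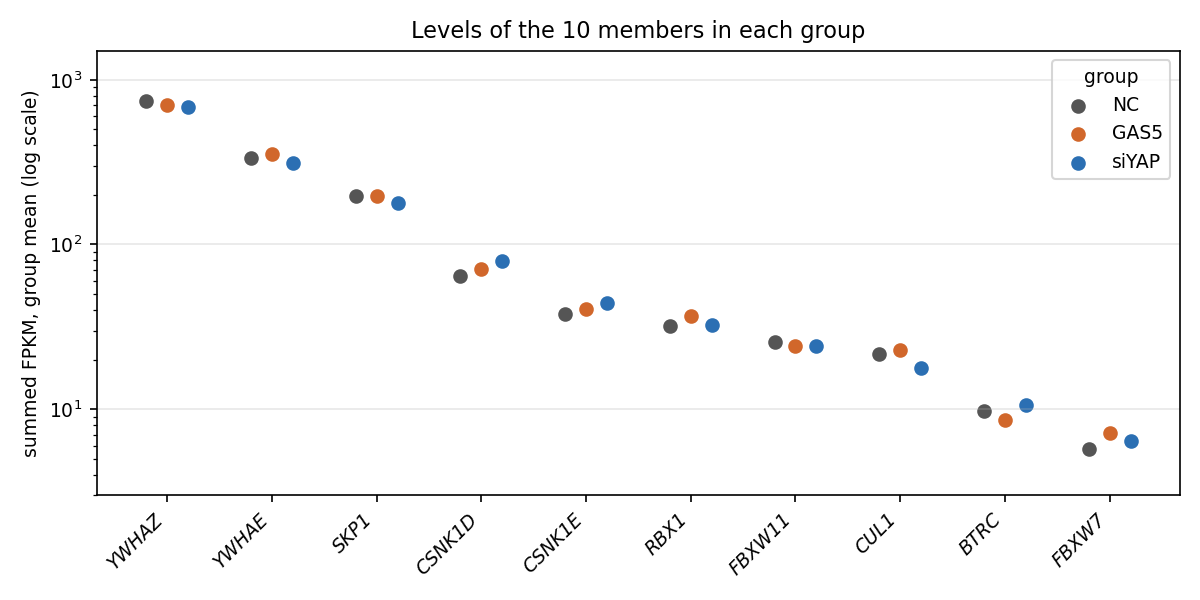
Summed FPKM of each member (log scale) in the NC, GAS5 and siYAP groups, 1 point per group mean and no error bar because the tables hold no single libraries. In NC the levels run from 742 for YWHAZ to 5.76 for FBXW7, and for every member the 3 groups lie close together on this scale.

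None of the 10 members differed from NC by 0.5 on the log2 scale, in GAS5 or in siYAP. Among all gene sums with a mean count of at least 50, 7.08% did so in GAS5 and 11.4% in siYAP. At a mean count of at least 1000, which 9 of the 10 members reached, these shares were 3.43% in GAS5 and 7.44% in siYAP. Most genes of the series therefore also stayed within this bound, and a count of 0 among 10 is near that background. In GAS5 the median log2 fold change of the members was 0.09, against -0.01 over all genes, with 7 members above 0 and 3 below. Over all gene sums, 48.4% were above 0 in GAS5 and 53.0% in siYAP. In siYAP the median of the members was 0.01 against 0.02 over all genes, with 5 members above and 5 below. The 95% Wilson interval of the share of counts left out 0 for 9 members in GAS5 and for 6 in siYAP. It also did so for 66.7% of all gene sums in GAS5 and 73.2% in siYAP, and for 77.3% and 83.8% of those with at least 1000 mean counts, so at this depth such an interval is common and the members' counts are not set apart by it. These intervals cover counting error only, not the spread between cultures. These are bulk libraries, so fewer cells with a transcript and less of it per cell cannot be told apart.

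**Figure D2:**
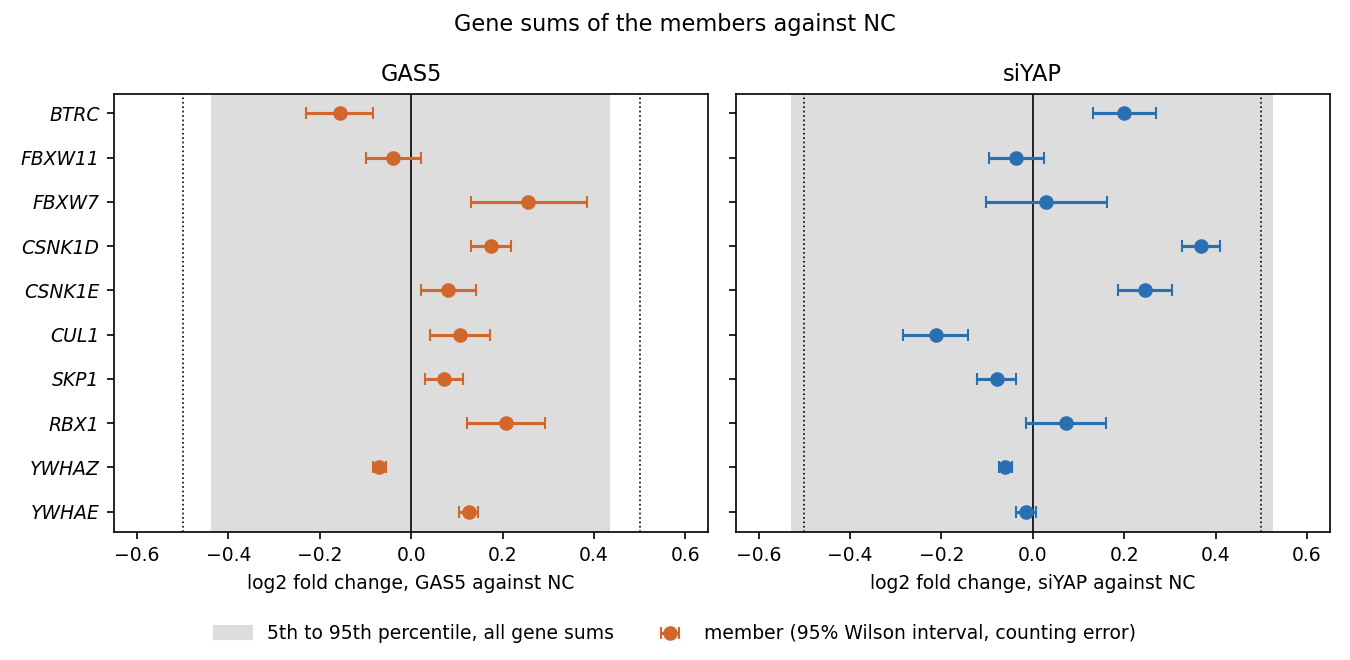
Log2 fold change of each member's summed counts against NC (left, GAS5; right, siYAP), with 95% Wilson intervals for counting error. The grey band is the 5th to 95th percentile of all gene sums (-0.44 to 0.43 in GAS5 and -0.53 to 0.52 in siYAP), dotted lines mark 0.5 in either direction, and all 10 members lie inside the band in both panels.

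BTRC, the founding beta-TrCP receptor, moved to opposite sides of NC in the GAS5 and siYAP groups. It (chr10:101354033-101557321, plus strand, GENCODE 29 on GRCh38) was at 1632.5 mean counts in NC, against 1358 in GAS5 and 1732 in siYAP. After scaling this was 10.3% lower in GAS5 (log2 fold change -0.16, interval -0.23 to -0.08) and 14.9% higher in siYAP (0.20, interval 0.13 to 0.27). About as many genes moved further as moved less: 51.6% of all gene sums were further from 0 in GAS5, and 51.9% in siYAP.

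FBXW11 (chr5:171861549-172006873, minus strand), the other beta-TrCP gene, stayed near NC, at 2312 mean counts in NC, against 2086 in GAS5 and 2083 in siYAP. The log2 value against NC was -0.04 in both groups, and both intervals included 0 (-0.10 to 0.02 in each). With Ensembl transcripts only, its value was 0.09 in both groups, so its direction depends on the assembled form. With total counts the siYAP value was -0.10. FBXW11 was the higher of the paralogues in every group, with an FPKM ratio to BTRC of 2.65 in NC, against 2.81 in GAS5 and 2.27 in siYAP. The pooled beta-TrCP counts were at -0.09 in GAS5 (interval -0.13 to -0.04) and 0.07 in siYAP (0.02 to 0.11).

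FBXW7 (chr4:152320544-152536063, minus strand), the receptor for MYC, cyclin E and JUN, was the least abundant member. It had 473.5 mean counts in NC, against 525 in GAS5 and 446 in siYAP. It was 19.5% higher in GAS5 after scaling, the highest value of any member in that group (log2 fold change 0.26, interval 0.13 to 0.38). In siYAP it was at 0.03, with an interval of -0.10 to 0.16, and at -0.04 when scaled by total counts.

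CSNK1D and CSNK1E, the kinases that complete the YAP degron, had the highest siYAP values of the members. CSNK1D (chr17:82239023-82273731, minus strand) was at 4110 mean counts in NC, against 4299 in GAS5 and 4900 in siYAP. It was 29.1% higher in siYAP (log2 fold change 0.37, interval 0.33 to 0.41) and 12.8% higher in GAS5 (0.17, interval 0.13 to 0.22). Its siYAP value was lower, at 0.30, both with total counts and as a ratio of FPKM. The siYAP value is inside the bulk of the series, since 22.9% of all gene sums lay further from 0.

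CSNK1E (chr22:38290691-38318084, minus strand) was at 2269 mean counts in NC, against 2227 in GAS5 and 2485 in siYAP. This was 18.6% higher in siYAP (0.25, interval 0.19 to 0.30, but 0.18 with total counts) and 5.82% higher in GAS5 (0.08, interval 0.02 to 0.14). Of the other casein kinase 1 genes, CSNK1G1 was at -0.30 in siYAP (interval -0.38 to -0.23), CSNK1A1 at -0.16 (-0.19 to -0.13), CSNK1G2 at -0.12 (-0.18 to -0.07) and CSNK1G3 at -0.06, with an interval that included 0 (-0.14 to 0.02). CSNK1D was also the member furthest from NC over both comparisons together, and the 3 genes with values most like its own were TMUB1 (0.17 in GAS5 and 0.37 in siYAP), ARVCF (0.18 and 0.37) and EVA1B (0.17 and 0.36). As many as 323 of 11832 genes lay within 0.1 of CSNK1D in that plane, so the pattern is a common one. CSNK1E overlaps the readthrough gene TPTEP2-CSNK1E and CSNK1D overlaps SLC16A3 on the opposite strand, and the counting tool and its strand setting are not given in the sources used here.

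CUL1 (chr7:148697914-148801036, plus strand), the scaffold of the ligase, had the lowest siYAP value of the members. Its mean count was 1834 in NC, against 1832 in GAS5 and 1461.5 in siYAP. It was 13.7% lower in siYAP (log2 fold change -0.21, interval -0.28 to -0.14) and 7.71% higher in GAS5 (0.11, interval 0.04 to 0.17). SKP1 (chr5:134148935-134177038, minus strand), the bridge to the receptor, was at 4523, 4408 and 3954 mean counts in NC, GAS5 and siYAP. It was 5.09% higher in GAS5 (0.07, interval 0.03 to 0.11, but -0.00 as a ratio of FPKM) and 5.35% lower in siYAP (-0.08, interval -0.12 to -0.04, and -0.15 with total counts). RBX1 (chr22:40951347-40973309, plus strand), the RING subunit, was at 1060, 1135 and 1029.5 mean counts. It was 15.4% higher in GAS5 (0.21, interval 0.12 to 0.29), and its siYAP value of 0.07 had an interval that included 0 (-0.01 to 0.16). So on the scaled counts all 3 core genes lay above NC in GAS5, whereas CUL1 and SKP1 lay below it in siYAP. The FPKM ratio of RBX1 to CUL1 went from 1.49 in NC to 1.60 in GAS5 and 1.82 in siYAP.

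A search for GGAATG, the core letters bound by TEAD factors, on both strands of RefSeq promoter windows (GRCh38.p14, 250 bases before to 50 after each start) covered 7 of the 10 members. Of 35116 windows in all, 4928 held it, and so did 1 of the 15 member windows. That window belongs to CUL1, at a start upstream of the CUL1 transcripts in GENCODE 29, and the other 4 CUL1 windows held none. A match is a description of these letters and not a binding site. The 66 bases around it are shown with the match in capitals, 35 bases before the start (chr7:148697691-148697756, plus strand).
CUL1 promoter stretch: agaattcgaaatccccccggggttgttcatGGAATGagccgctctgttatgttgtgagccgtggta

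YWHAE (chr17:1344272-1400378, minus strand), which codes for 14-3-3 epsilon, was at 17801 mean counts in NC, against 18016 in GAS5 and 16282 in siYAP. It was 9.14% higher in GAS5 (0.13, interval 0.11 to 0.15) and at -0.01 in siYAP, with an interval that included 0 (-0.04 to 0.01). With other scalings the siYAP value was further from 0, at -0.08 with total counts and -0.11 as a ratio of FPKM, and the GAS5 value was 0.07 as a ratio of FPKM. YWHAZ, which codes for 14-3-3 zeta, was the most abundant member at 44048 mean counts in NC, against 38927 in GAS5 and 39022 in siYAP. It was 4.70% lower in GAS5 (-0.07, interval -0.08 to -0.06) and 4.07% lower in siYAP (-0.06, interval -0.07 to -0.05, and -0.13 with total counts). These narrow intervals reflect the depth of YWHAZ, and 76.7% of gene sums in GAS5 and 84.8% in siYAP lay further from 0. Among the 7 genes of the 14-3-3 family, YWHAZ held 46.6% of the summed FPKM in NC, against 43.6% in GAS5 and 44.8% in siYAP, and YWHAE held 21.1%, 21.9% and 20.5%. SFN, the epithelial 14-3-3 sigma, held 8.59% in NC and more in both other groups, 10.7% in GAS5 and 11.5% in siYAP.

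The transcripts were then compared, since a steady gene sum can hide a shift between isoforms. The 74 transcripts held 67 from Ensembl and 7 assembled from the reads, and 8 were listed at 0 in every group. Transcript counts are estimates made by dividing reads among overlapping isoforms, so reads from shared exons can be assigned either way. Of the 51 member transcripts with a mean count of at least 10 in the GAS5 comparison, 8 differed from NC by at least 1 on the log2 scale (6 higher, 2 lower), or 15.7%, against 18.1% of all transcripts. In siYAP it was 6 of 50 (5 higher, 1 lower), or 12.0%, against 18.9%. These shares were near the background. In GAS5, 6 of the 8 had a mean count under 100, where the spread of all transcripts was wide, and in siYAP 5 of the 6 did. FBXW7-207, YWHAZ-208 and YWHAZ-216 were past the bound in both comparisons on the same side, and BTRC-203 on opposite sides. Their NC means were low, from 19.4 counts for YWHAZ-216 to 56.1 for FBXW7-207. Both comparisons use that same NC mean, so the values of a transcript in GAS5 and siYAP are not independent. The share of all transcripts past the bound in both is not given here, so no meaning is drawn from these cases.

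**Figure D3:**
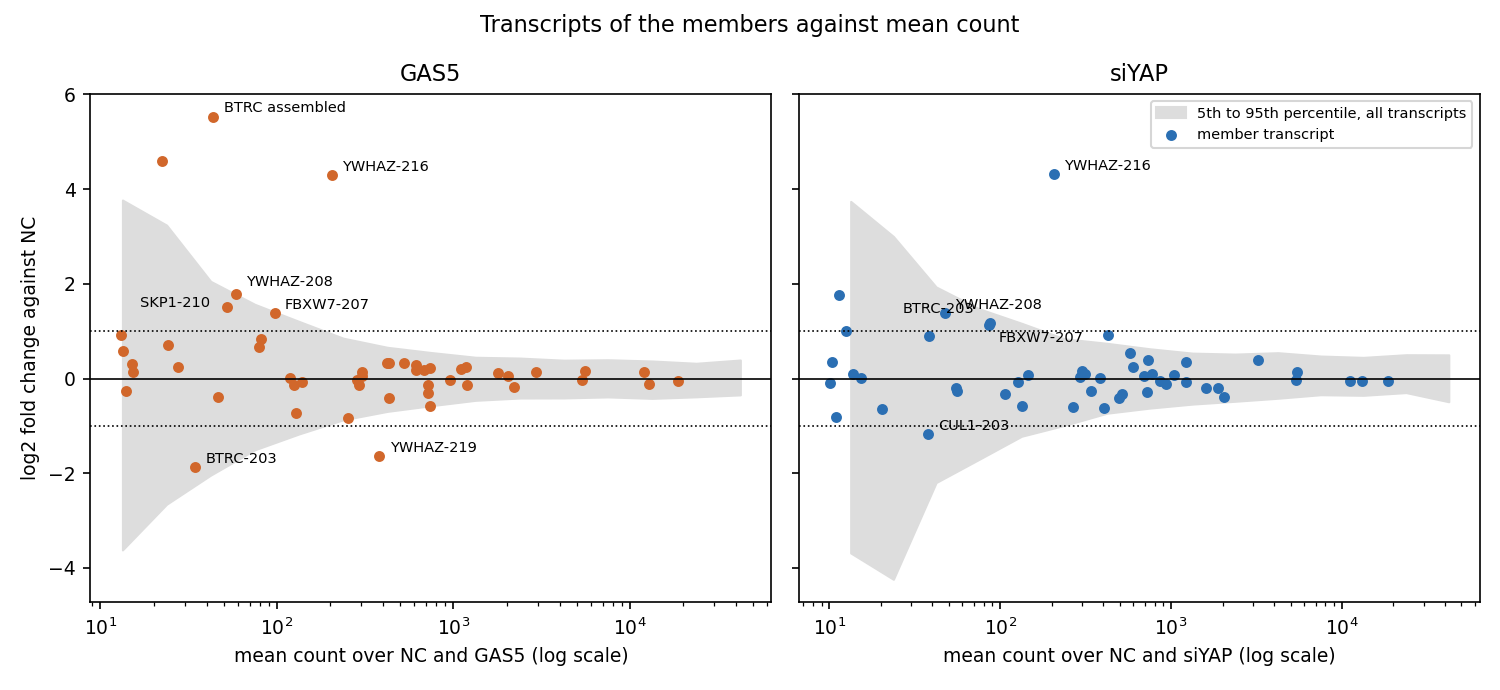
Log2 fold change against NC of each member transcript (points) by its mean count over both groups (log scale), with the 5th to 95th percentile of all transcripts in grey and dotted lines at 1 in either direction. Most points lie in the band, and YWHAZ-216 stands above it in both panels, at 4.30 in GAS5 and 4.31 in siYAP.

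For BTRC, the split between the long form with the 108-base exon and the form without it differed between the groups. BTRC-202, the main form in NC, was at 913 mean counts in NC, against 566 in GAS5 and 813 in siYAP. BTRC-204, which lacks the 108-base exon, was at 664, 692 and 800. Of the FPKM on Ensembl transcripts of BTRC, forms with the 108-base exon made up 58.5% in NC, against 45.2% in GAS5 and 53.2% in siYAP. BTRC-203, which lacks the 78-base exon, went from 56.1 mean counts in NC to 12.8 in GAS5 (log2 fold change -1.87) and 119 in siYAP (1.17). A BTRC transcript assembled from the reads (TCONS_00015097), whose exons are not given, was at 0 in NC and siYAP and at 87.1 mean counts in GAS5. Without it, the BTRC sum was at -0.25 in GAS5, against -0.16 with it. Set against a floor of 3 counts over the group, it was 62.6-fold higher in GAS5. That floor covers counting error only. Reads from shared exons can be assigned to other BTRC transcripts, so the ratio is not a lower bound. Counting TCONS_00015097 on either side, the GAS5 share of the 108-base exon lay between 42.3% and 48.7%, below the share in both other groups. BTRC-202 contains every base of BTRC-204, so few reads can tell them apart.

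FBXW11 counts lay on 3 main transcripts. The assembled form TCONS_00118809 was the main one in NC, at 826 mean counts, and was lower in GAS5 (615, log2 fold change -0.32) and siYAP (627, -0.28). FBXW11-202, with the 63-base exon, was at 708, 767 and 680, and FBXW11-203, with neither optional exon, was at 773, 654 and 763. FBXW11-201, with the 102-base exon that resembles the one in BTRC, was at 0 in NC, against 44.9 mean counts in GAS5 and 13.0 in siYAP. Set against the same floor, with the same limit, it was 32.3-fold higher in GAS5. FBXW11-201 fell outside the naming rule for transcripts and is given because of that exon. The rare FBXW11-204 also carries the exon, at 5.4, 5.2 and 0 mean counts in NC, GAS5 and siYAP. Of the FPKM on Ensembl transcripts of FBXW11, forms with the exon made up 1.64%, 3.83% and 0.59%. Counting TCONS_00118809 on either side, the share lay between 1.19% and 28.6% in NC. It lay between 2.95% and 25.9% in GAS5, and between 0.45% and 23.2% in siYAP.

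FBXW7 was the member whose split differed most from NC. The part of its counts that sat on other transcripts than in NC, taken as 0.5 of the summed absolute differences between transcript shares, was 24.1% in GAS5 and 18.4% in siYAP, against a median of 5.55% and 5.44% over all genes with at least 2 transcripts, but FBXW7 is also a gene of low counts. FBXW7-205, the main form in NC, was at 166, 91.9 and 102 mean counts in NC, GAS5 and siYAP. FBXW7-207, with the same coding sequence, was at 56.1, 138 and 115 (log2 fold change 1.37 in GAS5 and 1.12 in siYAP). FBXW7-201, with the other first coding exon, was at 61.1, 102 and 48.7. Nearly all of FBXW7-207 (99.7% of its bases) lies within FBXW7-205. Pooled, FBXW7-202, FBXW7-205 and FBXW7-207 were at 370, 360 and 361 mean counts, with log2 fold changes of 0.07 and 0.08. The sum of these forms with one protein start was thus nearer to NC than either FBXW7-205 or FBXW7-207 alone. Their share of FBXW7 counts was 78.1% in NC, against 68.5% in GAS5 and 80.9% in siYAP.

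The casein kinase genes differed in this respect. For CSNK1D the split was steady: CSNK1D-203, with the 30-base end, held 70.7% of the counts in NC and was the main form, at 2906, 2951 and 3509 mean counts in NC, GAS5 and siYAP. CSNK1D-202, with the 48-base end, was at 1126, 1238 and 1329, so both main forms were higher in siYAP (log2 fold changes 0.39 and 0.35). CSNK1D-204, with the 84-base end, was rare at 63.4, 94.7 and 48.6. Only 2.08% of CSNK1D counts in GAS5 and 0.89% in siYAP sat on other transcripts than in NC.

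For CSNK1E the estimated siYAP values differed between forms. The assembled main transcript TCONS_00096473 was at 1005, 912 and 850 mean counts in NC, GAS5 and siYAP. CSNK1E-204 and CSNK1E-201, which share one coding length, were together at 797, 865 and 1200, a log2 fold change of 0.23 in GAS5 and 0.70 in siYAP. Their share of CSNK1E counts was 35.1% in NC, against 38.8% in GAS5 and 48.3% in siYAP. Not all Ensembl forms were higher in siYAP. CSNK1E-205, at 300 mean counts in NC, was at 0.04, and CSNK1E-206, at 135, was at -0.08. With Ensembl transcripts only, the CSNK1E value in siYAP was 0.49, against 0.25 for the whole sum. The redistribution in siYAP was 13.5%, against a median of 3.62% over genes that averaged at least 1000 counts. CSNK1E-204 shares 82.0% of its bases with CSNK1E-201, and the exons of TCONS_00096473 are not given. Reads from shared exons can therefore be assigned to any of these forms.

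**Figure D4:**
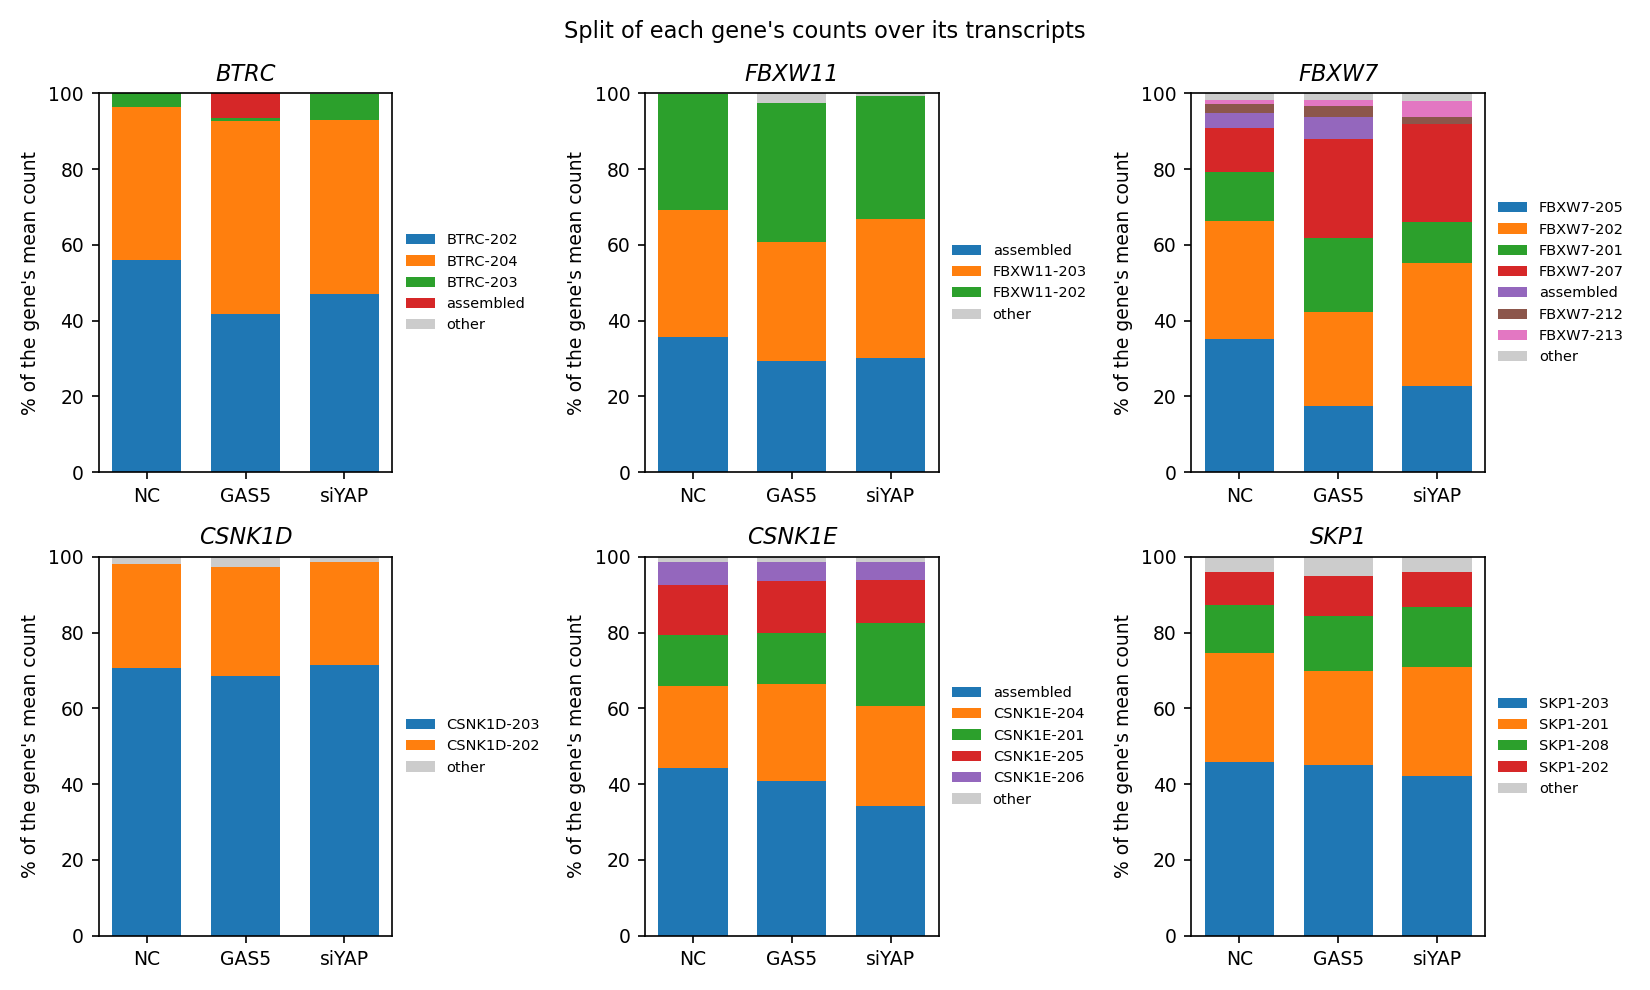
Percent of each gene's mean count on each transcript in NC, GAS5 and siYAP for BTRC, FBXW11, FBXW7, CSNK1D, CSNK1E and SKP1; transcripts under 3% in every group are pooled as other, and assembled marks transcripts built from the reads. The bars of CSNK1D hardly change, FBXW7-205 goes from 35.1% in NC to a smaller share in both other groups, and an assembled BTRC transcript appears in GAS5 alone.

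Of the core genes, CUL1 lay almost wholly on CUL1-201 (97.0% of its counts in NC), at 1780, 1794 and 1438 mean counts. CUL1-203, with the same coding length and another start, was at 54.3, 38.2 and 21.1, a log2 fold change of -1.18 in siYAP. RBX1 had 1 listed transcript, RBX1-201. SKP1 was led by SKP1-203 at 2080, 1990 and 1668 mean counts, and the rare SKP1-210 was at 27.8, 76.7 and 49.3 (1.51 in GAS5). YWHAE was led by YWHAE-201 at 11840, 12021 and 10476 mean counts.

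YWHAZ (chr8:100916525-100953388, minus strand) was led by YWHAZ-207, at 19604, 17635 and 17550 mean counts in NC, GAS5 and siYAP. The forms with its coding length held 97.7% of YWHAZ counts in NC, against 97.8% in GAS5 and 97.2% in siYAP. Among the rest, YWHAZ-216 was at 19.4 mean counts in NC, against 390 in GAS5 and 392 in siYAP, while YWHAZ-219 was at 588, 173 and 407. These transcripts share 1308 exonic bases, 93.8% of YWHAZ-219. Added together they were at 608, 564 and 799 mean counts, a log2 fold change of 0.00 in GAS5 and 0.51 in siYAP. Their sum in GAS5 was thus level with NC, while in siYAP it was above NC. YWHAZ-208 was rarer, at 27.0, 90.4 and 68.0.

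The other genes of the pathway were counted in 10 lists holding 76 genes, of which all but CAND2 (75) averaged at least 50 counts. In GAS5, 2 were at least 0.5 higher and 1 lower, with a median of 0.01. In siYAP, 2 were higher and 3 lower, one of these being YAP1, the target of the siRNA, with a median of 0.02. Over all gene sums, the share past the bound was 7.08% in GAS5 and 11.4% in siYAP. The list of 8 genes for other cullins and the RING gene RNF7, the 5 other 14-3-3 genes, the 4 other casein kinase 1 genes and the 9 COP9 signalosome genes held none past 0.5 in either comparison, and neither did the neddylation list or the 3 deubiquitinases of YAP.

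The list of 9 genes for the COP9 signalosome, which removes NEDD8 from cullins, had all 9 values above 0 in GAS5, where 48.4% of all gene sums were above 0, with a median of 0.19 and COPS7B furthest at 0.34. The interval of COPS6 included 0 (0.02, interval -0.03 to 0.07). In siYAP 4 of the 9 were above 0, the median was -0.13 and COPS2 was furthest at -0.39. Of the neddylation genes, SENP8, a NEDD8 protease, was furthest in GAS5 (0.25) and NAE1, a subunit of the NEDD8 E1 enzyme, in siYAP (-0.27). Of the other cullins, CUL3 was furthest in GAS5 (-0.21) and CUL7 in siYAP (0.41). Of the other 14-3-3 genes, SFN was furthest in both, at 0.36 and 0.42, and of the casein kinases CSNK1G2 in GAS5 (-0.19) and CSNK1G1 in siYAP (-0.30).

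Among 13 other F-box receptors, SKP2, the receptor for the cell cycle inhibitor p27, was furthest in GAS5 at 0.46. In siYAP, FBXO5, an inhibitor of the anaphase-promoting complex, was at -0.57 and was the only list member past the bound. Of the 6 E2 enzymes, CDC34 was furthest in GAS5 (0.30) and UBE2D1 in siYAP (-0.54, from 468 mean counts in NC to 297.5 in siYAP). USP9X, which removes ubiquitin from YAP, was at -0.28 in GAS5, and OTUB2 was at 0.45 in siYAP.

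The mRNAs of proteins that beta-TrCP marks held 13 genes with a median of -0.09 in GAS5 and 0.03 in siYAP. DEPTOR, an mTOR inhibitor, was furthest in GAS5 at -0.70 and lay on the other side in siYAP at 0.61, from 154 mean counts in NC to 87 and 217.5. CDC25A, a cell cycle phosphatase, was at 0.68 in GAS5. YAP1 itself was furthest in siYAP. CTNNB1, which codes for beta-catenin, was at 0.07 and -0.05. Among 7 mRNAs of FBXW7 substrates, JUN was at 391 mean counts in NC, against 2255.5 in GAS5 and 595.5 in siYAP, a log2 fold change of 2.63 and 0.72. The remaining 6, MYC among them (-0.10 and 0.36), stayed below 0.5 in both comparisons. The median of the list was -0.04 in GAS5 and 0.31 in siYAP.

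**Figure D5:**
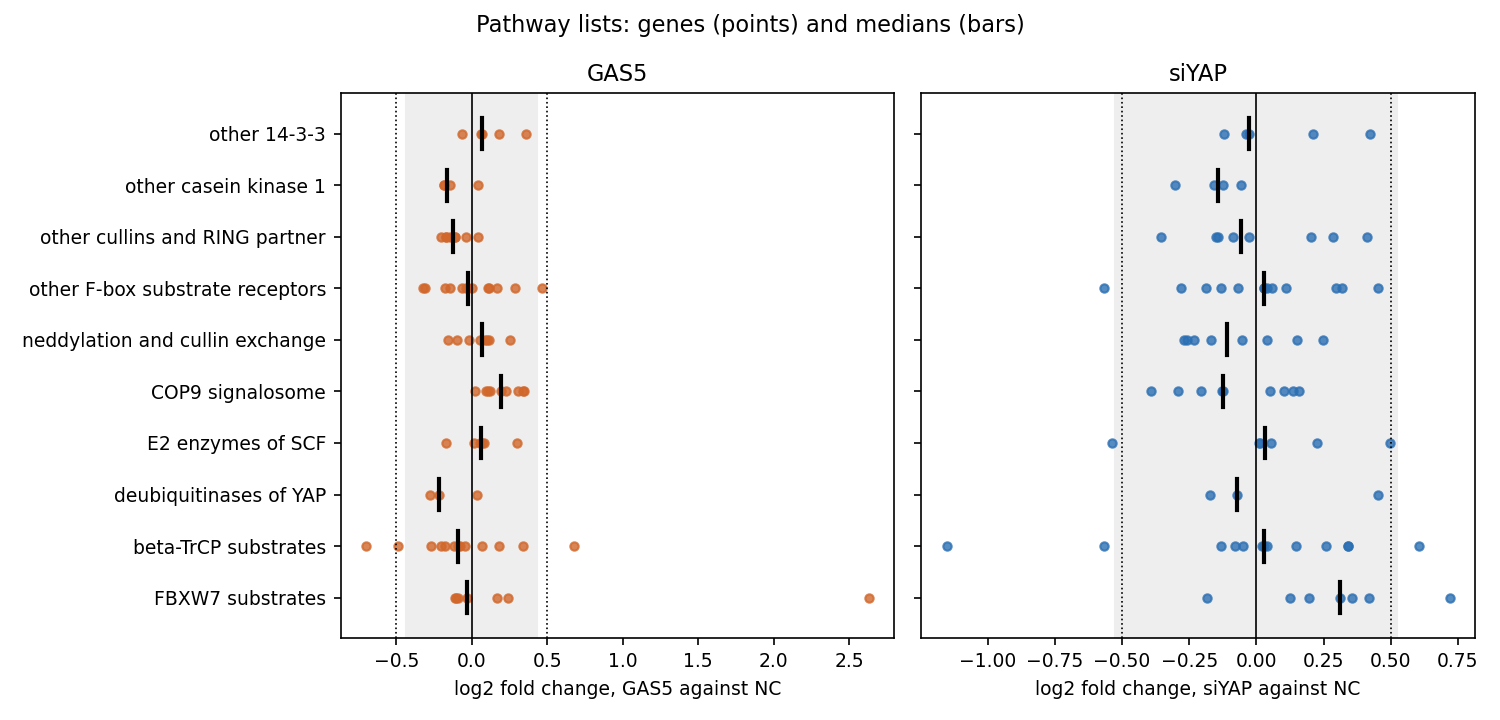
Log2 fold change against NC of the genes in each pathway list with a mean count of at least 50 (points) and the median of each list (bars), with the 5th to 95th percentile of all gene sums in grey and dotted lines at 0.5 in either direction. JUN at 2.63 in GAS5 and YAP1 at -1.15 in siYAP are the points furthest out, and most other points lie inside the grey band.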

How the data were processed

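RNA from 6 HCT116 libraries (strand-specific, dUTP method, Illumina HiSeq) was measured. The submitters' processing notes name TopHat2 2.1.1, and the counting tool, genome build and annotation are not given in the sources used here. The authors deposited estimated counts (expected counts) per transcript, averaged over the libraries of a group and not normalized. The authors also deposited FPKM, averaged in the same way, with 0 written as 0.001. Columns with the authors' own fold changes, p-values, FDR and significance calls were not used. The tables were joined by transcript identifier, and counts were summed by upper-cased symbol from the siYAP table.

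Counts were scaled by TMM (edgeR 4.0.16, R 4.3.3, filterByExpr minimum count of 10) on each pair of group means, with a prior count of 2. Fold changes and 95% Wilson intervals were calculated in Python 3.11.15 (scipy 1.17.1), taking 2 libraries per mean. The intervals and the floor of 3 counts cover counting error only. Depth was 25521577 to 27206123 mean counts, which gives narrow intervals for abundant genes and wide ones for rare transcripts. With group means only, no test was run. The planned steps were tested on simulated data. Alternatives were DESeq2 1.42.0 size factors, total counts, a prior count of 0.5, FPKM ratios, Ensembl transcripts only and no filter.

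Named are all members, the main NC transcript of each, every member transcript at or past 1 on the log2 scale with at least 50 mean counts in a group, the gene furthest from 0 in each pathway list, the check genes, and the 3 genes nearest to the furthest member. Members and lists were chosen with earlier results of these data known. CSNK1D-202, CSNK1E-201, FBXW11-201 and other transcripts that share exons with these were chosen after their values were seen. GAS5 itself is not analysed here.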

Additional observations from a re-analysis of the deposited data

How the results depend on the processing

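No member reached 0.5 on the log2 scale in any of the 120 values under the 6 alternatives. In siYAP the median of the members was -0.058 with total counts and 0.079 with Ensembl transcripts only, against 0.01. Member signs changed in 4 of the 120 values: FBXW11 with Ensembl transcripts only (0.09 in both groups, against -0.04), SKP1 in GAS5 with FPKM ratios (-0.00, against 0.07) and FBXW7 in siYAP with total counts (-0.04, against 0.03). Total counts moved the median of all genes in siYAP to -0.04, against 0.02, and YWHAZ to -0.13, against -0.06. The furthest shift of a member value was 0.24, for CSNK1E in siYAP with Ensembl transcripts only. YAP1 in siYAP was at -1.22 with total counts and -1.26 with FPKM ratios. Without the low-count filter, 13 of 74 member transcripts were past 1 in siYAP (17.6%, against 17.5% of all) in place of 6, and 12 in GAS5 (16.2%, against 17.4%) in place of 8, because transcripts under 10 mean counts then enter. The cause of the other shifts was not tested. A minimum of 10 mean counts in both groups, chosen after seeing the data, left 6 of 48 in GAS5 (12.5%, against 10.3% of all) and 5 of 45 in siYAP (11.1%, against 10.9%).

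No paired analysis was possible because each column is a mean over its group. For the same reason leaving out a library, the replicate block and the DESeq2 test were not run.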
